A study of Mus musculus with 24 samples.

Results

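The LSD1 binding sites of 3T3-L1 cells labelled as overexpressing LSD1 were compared between day 7 and day 0 of fat cell differentiation. The sites are all peaks of the 2 lists deposited for these cells, 27221 at day 7 and 13997 at day 0. Together they make 41218 of the 56252 peaks in the 6 peak lists of the series. 3T3-L1 is a mouse line of preadipocytes, which become fat cells when induced with hormones, and the study asks what lysine-specific demethylase 1 does when beige fat forms. The series has 12 RNA-seq libraries, which are 3 for each of 2 genotype labels (LSD1 overexpression and control) at day 7 and at day 0. It also has LSD1 ChIP-seq peaks of both genotypes and Nrf1 ChIP-seq peaks, with 1 sample for each list. The Nrf1 sample of day 7 has LSD1 cells in its title and control as its genotype label, and that of day 0 has control as its genotype label.

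The groups used were LSD1 cells at day 7 and LSD1 cells at day 0, with control cells of the same days as a side view. All were 3T3-L1 cells of passages 13 to 18, according to the labels. Day 0 cells were confluent and had not been induced. Day 7 cells had received insulin at 10 µg/ml, dexamethasone at 1 µM, rosiglitazone at 10 µM and isobutylmethylxanthine at 500 µM, and from day 3 medium with serum and insulin alone. A homemade antibody against LSD1 was used for immunoprecipitation. The promoter that drove the introduced LSD1, and whether the cells were 1 clone, are not given in the sources used here.

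LSD1, encoded by Kdm1a, removes methyl groups from lysines of histone H3 and works in complexes with the corepressors of the CoREST family and with deacetylases. It has no DNA sequence preference of its own and is brought to promoters and enhancers by other proteins. In fat tissue it has been tied to the genes of oxidative metabolism. A ChIP-seq peak marks a stretch of DNA that was enriched in the precipitate. It does not say whether LSD1 was active there.

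Kdm1a itself did not follow the genotype label at day 7. Its level was 54.2, 55.3 and 54.3 CPM (read counts scaled to a common library size) in LSD1 cells at day 7, against 65.9, 67.5 and 74.4 CPM in control cells at day 7. At day 0 it was 89.3, 104 and 98.9 CPM in LSD1 cells, against 78.8, 86.2 and 84.0 CPM in control cells. At the level of this transcript LSD1 cells were thus somewhat above control cells at day 0 and below them at day 7. The difference between the cells was not tested within either day. Whether the count covers the introduced gene is not given in the sources used here. "LSD1 cells" is used below as the name of the labelled samples only.

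The 12 RNA-seq libraries held 27512273 to 37565527 counts over all transcripts. The marker genes of fat cells summed to between 26100 and 31900 CPM in LSD1 cells at day 7, against 494 to 622 CPM at day 0, and all 7 rose. The 6 markers of preadipocytes and fibroblasts summed to between 1220 and 1250 CPM at day 7, against 13200 to 17500 CPM at day 0, and all 6 fell. For endothelium, muscle, macrophages, and bone or cartilage, the marker sums lay between 2.68 and 44.0 CPM at day 7 and between 6.71 and 94.5 CPM at day 0. At day 7 no counts were found for 4 of 8 endothelial, 5 of 8 muscle, 3 of 7 macrophage and 2 of 8 bone or cartilage markers. In these bulk libraries fewer cells of a type and less RNA per cell cannot be told apart. Replicate 1 of LSD1 cells at day 0 stood apart from the others, with a sum of 4020 CPM over 28 genes of mitosis against 2380 and 2300 CPM, and of 2640 CPM over 22 interferon genes against 1090 and 1130 CPM. It was also the highest over genes of respiratory complex I (3390 CPM against 2000 and 2330 CPM) and complexes II to V (7480 CPM against 4630 and 5330 CPM). The same held for DNA replication (1250 CPM against 756 and 788 CPM) and fibroblast genes (48900 CPM against 40200 and 38800 CPM). Over the adipocyte program its sum was 1180 CPM against 1250 and 1150 CPM, and over inflammation genes 6280 CPM against 6290 and 6420 CPM.

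Some peaks of the day 7 list also stood apart. Of its 319 peaks at or above a score of 3100, where the scores pile up, 101 overlapped no peak of the other 3 LSD1 lists (day 0, and control at both days). They had a median width of 4498 bp, lay at a promoter in 13 cases and held 3.87% of the length that the day 7 list covered. None of the 58 day 0 peaks at that score was of this kind. Counts without these 101 peaks are given beside the results they touch, and were added after the data had been seen.

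Sequences are shown first for 8 bound sites, as examples of the classes of binding described below. Each was picked for the motif it holds, so the motif is not typical of its class, and the share of each class that holds it is given with the motif results. The first pair are the promoters of Cidec and Plin1, which coat fat droplets and were bound at day 7 only. Each is 250 bases before to 50 bases after the annotated start, from RefSeq (build GRCm38.p6). Cidec lies at chr6:113434715-113435014 and Plin1 at chr7:79732727-79733026, both on the minus strand. Capitals mark the letters TTGCNNAA of C/EBP proteins, which drive adipogenesis, on either strand.

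Cidec: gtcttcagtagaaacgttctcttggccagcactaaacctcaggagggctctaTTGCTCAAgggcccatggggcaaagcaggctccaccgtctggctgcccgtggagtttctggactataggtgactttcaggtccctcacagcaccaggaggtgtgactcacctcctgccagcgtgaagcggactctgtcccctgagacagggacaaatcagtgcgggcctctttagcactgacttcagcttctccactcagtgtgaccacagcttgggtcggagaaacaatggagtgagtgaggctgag
Plin1: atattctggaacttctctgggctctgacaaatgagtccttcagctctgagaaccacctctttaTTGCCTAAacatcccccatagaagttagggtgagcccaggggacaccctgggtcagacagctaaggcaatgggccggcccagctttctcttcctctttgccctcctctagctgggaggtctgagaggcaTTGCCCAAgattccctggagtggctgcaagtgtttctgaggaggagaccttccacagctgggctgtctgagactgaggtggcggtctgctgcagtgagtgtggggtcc

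The promoters of Ndufa6, a subunit of respiratory complex I, and Uqcr11, a subunit of complex III, were bound at both days. Ndufa6 lies at chr15:82354242-82354541 and Uqcr11 at chr10:80406772-80407071, both on the minus strand. Capitals mark GCATGCGC, the letters of the mitochondrial regulator NRF1, and in Uqcr11 also CCGGAAG of the ETS family.

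Ndufa6: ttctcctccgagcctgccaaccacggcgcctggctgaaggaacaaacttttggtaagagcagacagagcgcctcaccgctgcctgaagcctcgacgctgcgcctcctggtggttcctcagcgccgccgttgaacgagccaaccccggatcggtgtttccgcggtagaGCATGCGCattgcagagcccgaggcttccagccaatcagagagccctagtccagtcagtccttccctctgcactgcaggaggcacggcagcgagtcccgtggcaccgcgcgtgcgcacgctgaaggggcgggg
Uqcr11: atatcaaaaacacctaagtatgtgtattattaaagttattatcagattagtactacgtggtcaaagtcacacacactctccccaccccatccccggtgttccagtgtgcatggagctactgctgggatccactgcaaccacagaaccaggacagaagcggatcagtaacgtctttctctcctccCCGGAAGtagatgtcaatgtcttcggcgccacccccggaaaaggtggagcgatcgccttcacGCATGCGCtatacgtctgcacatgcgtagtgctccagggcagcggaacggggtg

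The promoters of Ifit3 and Isg15, which are induced by interferon and act against viruses, were bound at day 0 only. Ifit3 lies at chr19:34583279-34583578 on the plus strand and Isg15 at chr4:156200769-156201068 on the minus strand. Capitals mark GAAANNGAA of the interferon regulatory factors on either strand, and the matches in Isg15 overlap each other.

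Ifit3: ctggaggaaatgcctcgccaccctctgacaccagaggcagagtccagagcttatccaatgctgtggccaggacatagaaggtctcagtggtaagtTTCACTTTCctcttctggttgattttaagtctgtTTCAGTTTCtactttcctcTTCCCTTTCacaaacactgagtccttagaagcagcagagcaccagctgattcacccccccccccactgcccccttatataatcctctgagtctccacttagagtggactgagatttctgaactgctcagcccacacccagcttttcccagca
Isg15: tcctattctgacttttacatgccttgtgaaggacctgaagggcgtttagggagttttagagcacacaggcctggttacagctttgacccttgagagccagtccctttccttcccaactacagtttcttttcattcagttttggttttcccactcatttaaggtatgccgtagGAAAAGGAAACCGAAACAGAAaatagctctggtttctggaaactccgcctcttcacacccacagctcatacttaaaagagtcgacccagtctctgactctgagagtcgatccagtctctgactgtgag

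The last pair are central 300 bases of peaks away from promoters. One lies within Scd1, a desaturase of fatty acids, at chr19:44402791-44403090 in a day 7 peak with a score of 919.71. The other lies near Fn1, which encodes the matrix protein fibronectin, at chr1:71582721-71583020 in a day 0 peak with a score of 673.1. Both are printed on the plus strand. Capitals mark TTGCNNAA and the PPAR and RXR letters GGNCANAGG in the Scd1 peak, and the AP-1 letters TGANTCA in the Fn1 peak.

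Scd1: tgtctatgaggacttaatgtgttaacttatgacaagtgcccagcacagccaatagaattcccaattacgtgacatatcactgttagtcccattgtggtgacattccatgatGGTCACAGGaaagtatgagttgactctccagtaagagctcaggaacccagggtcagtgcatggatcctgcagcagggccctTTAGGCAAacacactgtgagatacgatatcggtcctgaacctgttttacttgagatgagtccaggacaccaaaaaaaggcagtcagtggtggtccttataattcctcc
Fn1: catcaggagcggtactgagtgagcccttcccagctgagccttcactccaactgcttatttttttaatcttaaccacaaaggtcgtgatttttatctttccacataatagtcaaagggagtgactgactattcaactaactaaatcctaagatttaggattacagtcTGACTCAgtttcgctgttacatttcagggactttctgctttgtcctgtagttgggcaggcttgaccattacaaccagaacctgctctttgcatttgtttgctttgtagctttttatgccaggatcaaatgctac

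LSD1 sites were more numerous and narrower at day 7, and fewer and wider at day 0. The 27221 day 7 peaks had a median width of 707 bp (mean 953 bp) and covered 25.95 Mb. The 13997 day 0 peaks had a median width of 1695 bp (mean 2147 bp) and covered 30.05 Mb. Without the 101 peaks described above, the day 7 list had 27120 peaks, a mean width of 920 bp and 24.95 Mb. At day 7, 150 peaks (0.551%) were at least 5 kb wide, against 632 peaks (4.52%) at day 0. The lists were called separately from 1 sample each. Their read depth is not given in the sources used here, so the part of depth or fragment length in these differences was not tested.

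The authors' peak scores had nearly the same lower end and middle in both lists. They ran from 50.01 to 3233.06 with a median of 150.4 at day 7, and from 50 to 3207.97 with a median of 154.8 at day 0. One peak in 4 was above 504.0 in the day 7 list, and one in 4 above 305.3 in the day 0 list. A score and a width went together within each list, with a Spearman correlation of 0.891 over 27221 peaks at day 7 and 0.711 over 13997 peaks at day 0, where both numbers come from the same reads.

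**Figure D1:**
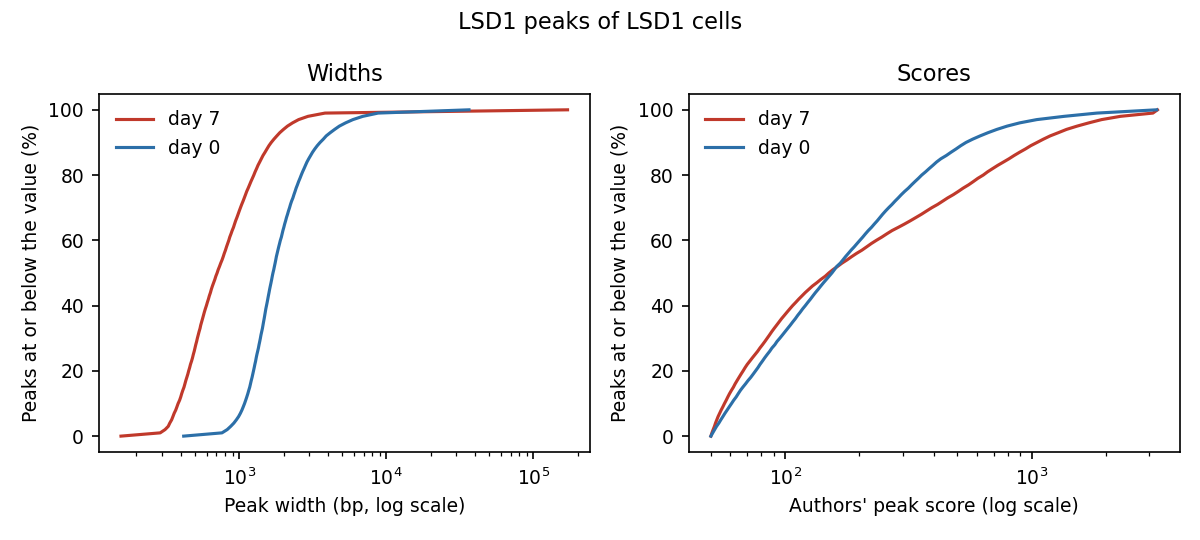
Cumulative percent of peaks by width (bp, log axis) and by the authors' peak score (log axis) in the day 7 and the day 0 list of LSD1 cells. Day 7 peaks are narrower, with a median of 707 bp against 1695 bp at day 0, while the median scores are 150.4 and 154.8.

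Most day 0 sites were also found at day 7, while about as many day 7 sites had no day 0 partner as had one. Of the day 7 peaks, 12854 (47.2%, 95% exact binomial interval 46.6 to 47.8) overlapped a day 0 peak by at least 1 bp. Of the day 0 peaks, 10522 (75.2%, 74.4 to 75.9) overlapped a day 7 peak. With the day 7 list cut to the 13997 highest scores, 70.1% of it and 65.3% of the day 0 list overlapped. The overlapped sites were stronger and wider than the others of their own list. At day 7 their median score was 453.8 and their median width 1016 bp, against 90.34 and 540 bp for the rest. At day 0 the medians were 192.4 and 1780 bp, against 83.73 and 1391 bp.

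The share of overlapped peaks climbed with the score in both lists. In 4 equal bins, from the lowest to the highest scores, it was 18.6%, 27.9%, 54.7% and 87.7% at day 7, and 49.6%, 72.7%, 86.8% and 91.7% at day 0. Of the 10522 overlapped day 0 peaks, 8723 overlapped 1 day 7 peak and 1799 (17.1%) overlapped at least 2, up to 10. Day 7 peaks were narrower, and the part of their width in this count was not tested. Across those 10522 peaks, the day 0 score and the highest day 7 score of an overlapping peak had a Spearman correlation of 0.458.

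The growth of the day 7 list lay mainly outside promoters. Each peak was put in the first class it overlapped of promoter (within 1 kb of a transcription start site, TSS), exon, intron and intergenic. Promoters held 11336 peaks (41.6%) at day 7 and 8680 (62.0%) at day 0, where promoter windows make up 1.87% of the genome. Introns held 6147 peaks (22.6%) at day 7 and 1221 (8.72%) at day 0, and make up 34.7% of the genome. Intergenic DNA held 7471 peaks (27.4%) at day 7 and 2438 (17.4%) at day 0, and makes up 61.2%. Exons held 2267 peaks (8.33%) at day 7 and 1658 (11.8%) at day 0. The wider peaks of day 0 reach a promoter window more readily, and by the peak centre alone the promoter share was 39.1% at day 7 and 56.6% at day 0.

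Promoter sites were largely common to both days and the others were not. At day 7, 80.8% of promoter peaks overlapped a day 0 peak, against 16% of intron peaks and 23.9% of intergenic peaks. At day 0 these shares were 95.7%, 37.4% and 44.9%. Away from promoters and without a partner in the other list lay 12187 day 7 peaks, with a median score of 84.87, and 3099 day 0 peaks, with a median score of 82.22. The peaks away from promoters lay a median of 16.4 kb from the nearest TSS at day 7 and 14.6 kb at day 0. Just inside the promoter window, with a gap of 500 bp to 1 kb to the TSS, were 914 peaks at day 7 and 124 at day 0. Just outside, with a gap of 1 kb to 2 kb, were 1194 at day 7 and 304 at day 0.

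Genes of transfer RNAs, which RNA polymerase III transcribes, were a further place of LSD1 peaks. Of 403 annotated transfer RNA genes, 162 (40.2%, 95% exact interval 35.4 to 45.2) lay under a day 7 peak and 75 (18.6%, 14.9 to 22.8) under a day 0 peak. Chromosomes did not all gain alike. Over the genome the number of peaks away from promoters was 2.99 times as high at day 7 as at day 0. By chromosome it ran from 1.31 times on X to 6.5 times on Y, where only 39 and 6 peaks lay. On chromosome 8, which held 17 of the 101 peaks described above, it was 4.77 times as high. The number of promoter peaks over the genome was 1.31 times as high.

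At day 7 the highest score, 3233.06, belonged to peaks at Eef1a1, a translation elongation factor (chr9:78480024-78482764, mm10), and at Grcc10 (chr6:124739922-124742551). They were followed by Ddhd2 (3228.29), a lipase, and Mt2 (3220.27), a metallothionein. All 10 of the highest day 7 promoter peaks also overlapped a day 0 peak, whose scores were 350.21 to 2215.52, and a peak of control cells at day 7. At day 0 the highest scores were at Vim (3207.97, chr2:13571733-13586546), the intermediate filament of fibroblasts, at Chd2 (3199.14), a chromatin remodeller, and at Phlda3 (3185.74), a target of p53. Another 54 day 0 peaks were tied at exactly 3100, one of them at Plin4, a coat protein of fat droplets, and its neighbour Hdgfl2, where the day 7 peak had the same score.

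The strongest sites away from promoters differed in kind. At day 7 the first was an intergenic peak at chr1:72225934-72227518, with a score of 3230.05 and an overlapping day 0 peak of 1661.16. Among the next 4, only the one at chr8:20258942-20263714 overlapped a day 0 peak (score 228.62), and none overlapped a peak of control cells. At day 0 the top score was the tied value of 3100, and the 5 widest of the tied peaks away from promoters, which included exons of Vmp1, Hnrnpa3 and Marcks, overlapped day 7 peaks of 72.13 to 3100.

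The widest day 7 peaks formed another group. Stretches of 171, 123 and 74.7 kb over Cpm, over Mdm2 and Slc35e3, and over Cpsf6 stood side by side on chromosome 10, each at a score of 3100. None overlapped a peak at day 0 or in control cells. Mdm2, the ubiquitin ligase of p53, had between 4290 and 6750 CPM across all 12 RNA libraries. The third widest day 7 peak, 78.9 kb over Acsl1, which activates fatty acids, had a score of only 82.86 and overlapped peaks in each of the other LSD1 lists. The widest day 0 peaks covered Neat1 (36.5 kb), a nuclear long non-coding RNA, Col3a1 (33.4 kb), a collagen, and Csf1 (24.5 kb), a growth factor of macrophages.

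A promoter peak, within 1 kb of any TSS of a gene, was found at day 7 for 11412 of 24318 annotated genes (46.9%) and at day 0 for 10003 (41.1%). At both days 9622 genes (39.6%) were bound, at day 7 only 1790 (7.36%), and at day 0 only 381 (1.57%). Without the 101 peaks described above, 1778 genes were bound at day 7 only. With scores of at least 100 this count was 3002, and with lists of equal length 809 genes were bound at day 0 only. Genes bound at both days had a median score of 712.9 at day 7 and of 217.5 at day 0. The others had lower scores within the same lists, with a median of 249.3 for genes of day 7 only and of 125.2 for genes of day 0 only.

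Binding followed expression at each day. Among genes with no counts at that day, 1.84% had a promoter peak at day 7 and 0.873% at day 0. Among genes with counts, ranked by CPM per kb of transcript, and put in 10 equal bins, the share bound climbed from 6.71% to 98.6% at day 7 and from 2.57% to 92.7% at day 0. In bin 4 it was 77.2% at day 7 and 51.2% at day 0. Of 1103 olfactory receptor genes, which serve smell and none of which had enough counts to be tested, 2 were bound at day 7 and 1 at day 0.

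**Figure D2:**
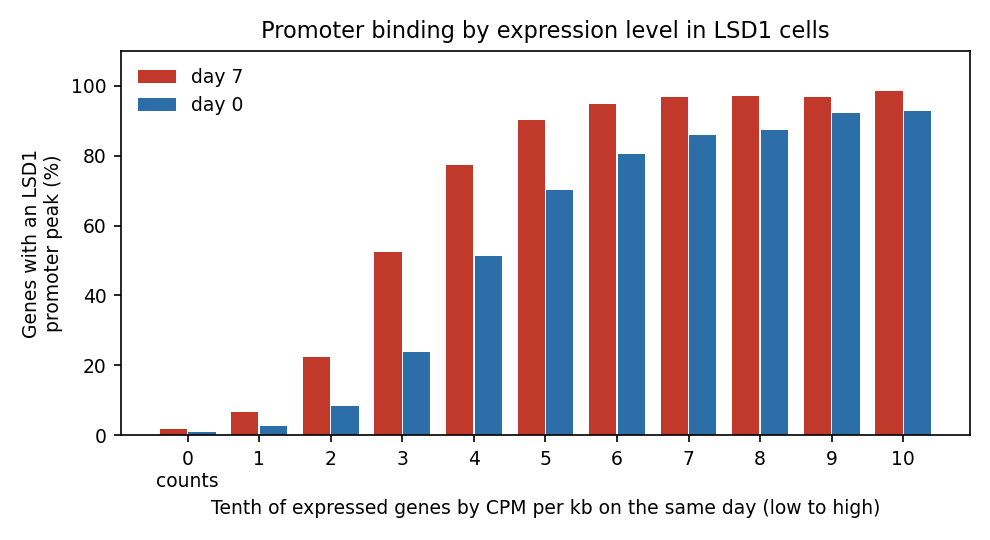
Share of genes with an LSD1 promoter peak (percent) by expression level in LSD1 cells of the same day, for genes with 0 counts and for 10 equal bins by CPM per kb. Both days climb with the level, and the day 7 share reaches 98.6% in the highest bin against 92.7% at day 0.

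Genes with a promoter peak at day 0 only mostly fell, and so did most of the tested genes bound at neither day. Expression was tested with edgeR's quasi-likelihood test on 13395 genes, of which 69.8% changed in LSD1 cells at day 7 relative to day 0, 32.6% upwards and 37.2% downwards, at an adjusted p of 0.05. Among 291 tested genes bound at day 0 only, 23 rose (7.9%) and 219 fell (75.3%), with a median log2 fold change of -2.36. Of 2106 tested genes bound at neither day, 431 rose (20.5%) and 1120 fell (53.2%), with a median of -1.36. Genes with a peak at day 7 only did not move one way. Of 1539 tested genes bound at day 7 only, 597 rose (38.8%) and 555 fell (36.1%), with a median of 0.04. Of 8962 bound at both days, 3199 rose (35.7%) and 2889 fell (32.2%), with a median of 0.06. Without replicate 1 of day 0, 24 of the genes bound at day 0 only rose and 217 fell. With lists of equal length, 70 of the genes bound at day 0 only rose and 473 fell.

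The fall of the genes bound at day 0 only was smaller in control cells, where 48.3% of all tested genes changed, 23.8% upwards and 24.5% downwards. There, 51 of the 291 rose (17.5%) and 102 fell (35.1%), with a median of -0.22. The test of the interaction, the change in LSD1 cells minus that in control cells, called 52.0% of all genes, and 28.1% as lower. It called 195 of the 291 lower (67.0%), with a median of -2.01. The tested genes bound at neither day also fell less in control cells, where 23.4% rose and 23.2% fell, with a median of 0.0. The interaction test called 912 of these 2106 genes lower (43.3%), with a median of -1.25.

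**Figure D3:**
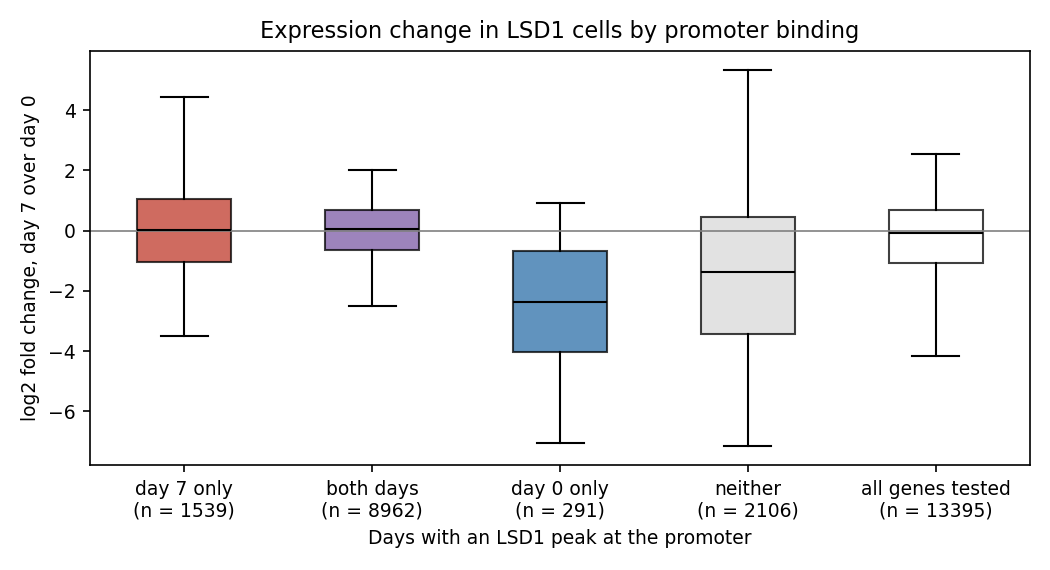
Log2 fold change of RNA, day 7 against day 0 in LSD1 cells, for tested genes by promoter binding (day 7 only, both days, day 0 only, neither) and for all genes tested. Lines in the boxes are medians (0.04, 0.06, -2.36, -1.36 and -0.07), boxes hold the middle 50% of genes and whiskers the middle 90%.

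The adipocyte program was the list with the largest share of promoters bound at day 7 only. Of its 30 genes, 12 were bound at day 7 only, 11 at both days, none at day 0 only and 7 at neither, and all 28 tested genes rose, with a median log2 fold change of 5.98. Among all annotated genes 7.36% were bound at day 7 only and 39.6% at both days, and 32.6% of all genes tested rose. The median over its bound genes of the highest promoter score was 2498 at day 7 and 124.6 at day 0. Over all genes bound at both days it was 712.9 at day 7 and 217.5 at day 0. It was 249.3 for all genes of day 7 only and 125.2 for all genes of day 0 only. Without replicate 1 of day 0, 27 rose.

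Fabp4, the fatty acid carrier of fat cells, had a day 7 promoter peak of 3100 and none at day 0. Its transcript stood at 16100, 14000 and 11100 CPM at day 7, against 6.83, 7.33 and 7.66 CPM at day 0, a log2 fold change of 10.88 (SE 0.379, edgeR adjusted p = 8.37e-11). Plin1, whose promoter is shown above, had 916, 974 and 1080 CPM at day 7, against 0.204, 0.143 and 0.0365 CPM at day 0. Its log2 fold change was 12.89 (SE 0.402, edgeR adjusted p = 4.11e-11). In both genes the days were far apart, with day 0 near the limit of counting for Plin1.

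Cidec had a day 7 peak of 3100 and RNA at 3680, 3960 and 4570 CPM, against no peak and 0.859, 0.179 and 0.365 CPM at day 0. Gpd1, which makes the glycerol backbone of triglycerides, had a day 7 peak of 3100 and RNA at 2550, 2720 and 2990 CPM, against no promoter peak and 2.94, 2.07 and 2.08 CPM at day 0. Cd36, a fatty acid transporter, had a weaker day 7 peak of 324.96, with 3860, 3660 and 3090 CPM at day 7, against 0.45, 0.179 and 0.182 CPM at day 0. Adipoq, the fat cell hormone adiponectin, had a peak of only 92.1 at day 7 and none at day 0. Its RNA was at 682, 619 and 734 CPM at day 7, against 0.204, 0.143 and 0.219 CPM at day 0. All these genes rose with no overlap between the days, while their day 7 scores spanned 92.1 to 3100.

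Beyond that list, the genes of day 7 only with the largest rise also included Mrap and G0s2. Mrap, a helper of the melanocortin receptors, had a peak of 291.64 and 519, 493 and 570 CPM at day 7, against 0.0409, 0.0715 and 0.0729 CPM at day 0 (log2 fold change 12.92, SE 0.337, edgeR adjusted p = 2.17e-11). G0s2, an inhibitor of lipolysis, had a peak of 2443.42 and 630, 621 and 627 CPM at day 7, against 0, 0 and 0.0729 CPM at day 0.

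Several lipid enzymes bound at both days had day 0 scores below 217.5, the day 0 median of all genes bound at both days. Lipe, the hormone-sensitive lipase, had a promoter score of 3100 at day 7 and 124.57 at day 0, and Pnpla2, the first lipase of triglyceride breakdown, 3100 and 113.99. Agpat2, which builds phosphatidic acid, had 3100 at day 7 and 104.22 at day 0. Lipe RNA was at 1970, 2090 and 2390 CPM at day 7, against 26, 14.3 and 14.1 CPM at day 0 (log2 fold change 6.89, SE 0.255, edgeR adjusted p = 1.27e-10).

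The transcription factors of adipogenesis were mostly bound before induction. Of 24, 17 were bound at both days, 4 at day 7 only, none at day 0 only and 3 at neither. Of them 19 rose and 3 fell. Among all annotated genes 39.6% were bound at both days and 7.36% at day 7 only. Of all genes tested 32.6% rose and 37.2% fell. Cebpa, which drives late adipogenesis, had a score of 3128.57 at day 7 and 170.2 at day 0. Its transcript stood at 191, 213 and 250 CPM at day 7, against 9.65, 6.04 and 6.64 CPM at day 0 (log2 fold change 4.88, SE 0.187, edgeR adjusted p = 1.66e-10). Pparg, the master regulator of fat cells and the target of rosiglitazone, had 1085.76 at day 7 and 196.94 at day 0. It had 336, 337 and 350 CPM at day 7, against 24.5, 36.9 and 36.0 CPM at day 0 (log2 fold change 3.39, SE 0.145, edgeR adjusted p = 4.23e-10).

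**Figure D4:**
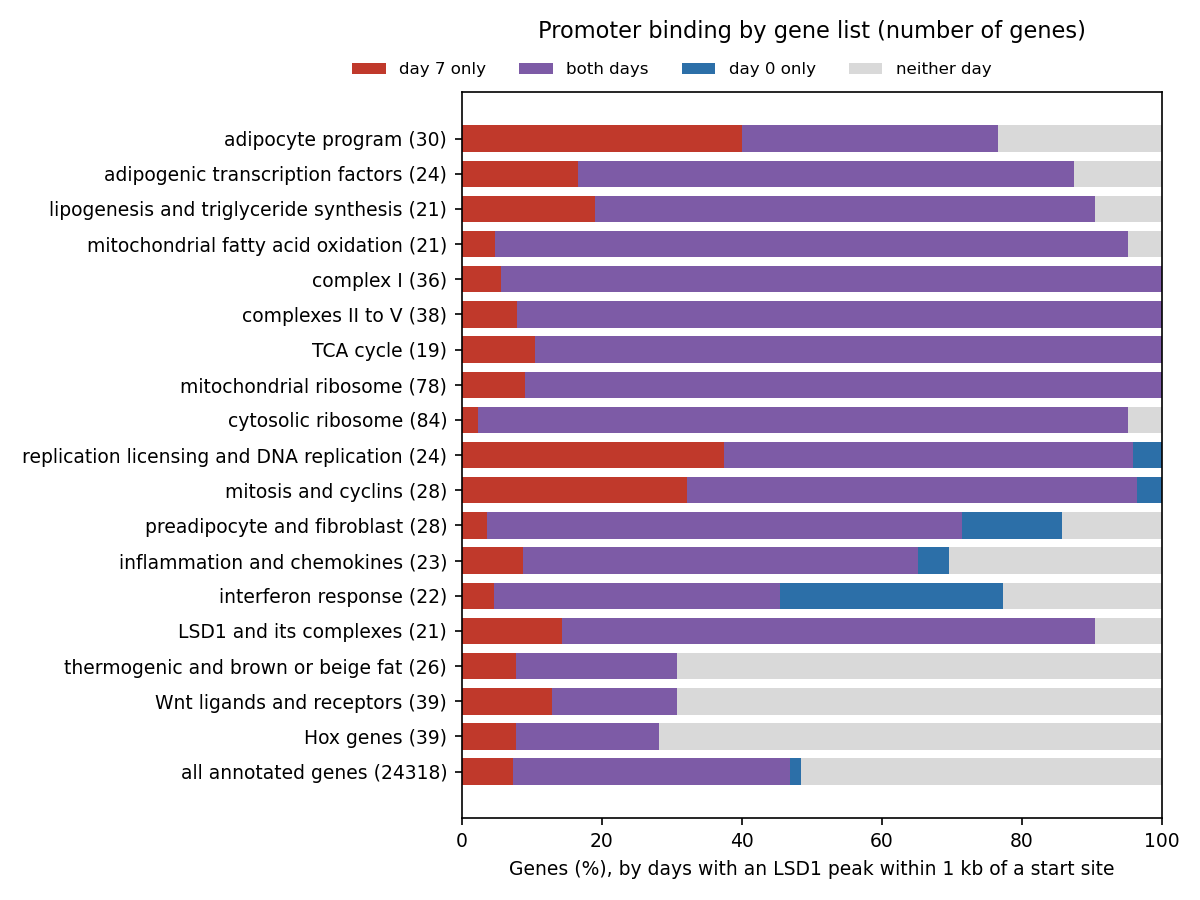
Number of genes of each list by promoter binding in LSD1 cells (day 7 only, both days, day 0 only, neither), as percent of the list. The adipocyte program has 12 of 30 genes bound at day 7 only, and the interferon response has 7 of 22 bound at day 0 only.

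Genes of beige and brown fat were seldom bound. Of 26 genes of that list, 2 were bound at day 7 only, 6 at both days, none at day 0 only and 18 at neither, and of 16 tested 11 rose and 5 fell. Among all annotated genes 51.5% were bound at neither day, and of all genes tested 32.6% rose and 37.2% fell. Ucp1, the uncoupling protein of thermogenic fat, Cidea and Prdm16 had no promoter peak at either day, and none of them exceeded 0.33 CPM in any library of LSD1 cells. Ppargc1a, a coactivator of mitochondrial genes, had a score of 645.4 at day 7 and 139.79 at day 0. It had 77.8, 75.4 and 57.9 CPM at day 7, against 21.0, 50.8 and 45.3 CPM at day 0, without overlap between the days (log2 fold change 0.85, SE 0.251, edgeR adjusted p = 0.00877). Cox7a1, a muscle and brown fat subunit of cytochrome oxidase, had a score of 87.18 at day 7 and 549.29 at day 0. Its RNA was at 60.0, 46.8 and 57.7 CPM at day 7, against 0.368, 0.214 and 0.182 CPM at day 0.

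Promoters of oxidative metabolism were bound almost throughout at both days, as were those of most well expressed genes. In bins 6 to 10 by expression level, 94.7% to 98.6% of genes were bound at day 7 and 80.5% to 92.7% at day 0. Over all annotated genes 39.6% were bound at both days. Of 36 genes of complex I, 34 were bound at both days and 2 at day 7 only, and all 36 rose with a median log2 fold change of 1.92. Of 38 genes of complexes II to V, 35 were bound at both days and 3 at day 7 only, and all 38 rose with a median of 2.1. Citrate cycle genes were bound at both days in 17 of 19 cases, and at day 7 only in the other 2. The mitochondrial ribosome had 71 of 78 genes bound at both days and 7 at day 7 only. Median scores in these 4 lists were 691.8 to 835 at day 7 and 149.2 to 242.3 at day 0. The cytosolic ribosome was bound as widely, with 78 of 84 genes at both days and median scores of 1548 at day 7 and 561.4 at day 0. Of its 81 tested genes, 6 rose (7.41%) and 29 fell (35.8%). Over all genes tested 32.6% rose and 37.2% fell, so only its share of rises stood apart.

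Most cell cycle genes had a promoter peak at day 7, and most fell. Of 28 genes of mitosis, 9 were bound at day 7 only, 18 at both days and 1, the cyclin Ccnb2, at day 0 only, while 24 fell and 2 rose. Of 24 genes of DNA replication, 9 were bound at day 7 only, 14 at both days and 1 at day 0 only, while 16 fell and 1 rose. Among all annotated genes 46.9% had a day 7 promoter peak and 7.36% were bound at day 7 only. Of all genes tested 37.2% fell and 32.6% rose. The genes of day 7 only with the largest fall included several of this kind. Kif23, a motor of the dividing cell, had a day 7 score of 288.28 and none at day 0. Its RNA was at 0.33, 0.155 and 0.207 CPM at day 7, against 54.7, 19.9 and 20.0 CPM at day 0 (log2 fold change -7.07, SE 0.504, edgeR adjusted p = 5e-08).

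Nuf2, part of the kinetochore, had a day 7 score of 279.72 and 0.275, 0.103 and 0.155 CPM, against no peak and 24.7, 6.36 and 6.16 CPM at day 0. Iqgap3, a scaffold of dividing cells, had a day 7 score of 359.54 and 0, 0 and 0.103 CPM, against no peak and 45.0, 6.61 and 5.47 CPM at day 0. The same class held Fbln1, an extracellular matrix protein, with a score of 69.6 at day 7 and none at day 0. It had 0.826, 1.65 and 1.34 CPM at day 7, against 144, 119 and 128 CPM at day 0. The high day 0 values of replicate 1 are visible in the cell cycle genes and not in Fbln1. Without that replicate 24 genes of mitosis and 16 of replication passed as lower, and Kif23 had a log2 fold change of -6.41.

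Of 28 genes of preadipocytes and fibroblasts, 19 were bound at both days, 4 at day 0 only, 1 at day 7 only and 4 at neither, and all 28 fell, with a median log2 fold change of -3.41. Among all annotated genes 39.6% were bound at both days and 1.57% at day 0 only, and 37.2% of all genes tested fell. The median score of the bound promoters was 414.5 at day 7 and 574.9 at day 0. All genes bound at both days had medians of 712.9 at day 7 and 217.5 at day 0. Dlk1, which holds back adipogenesis, had a day 0 peak of 1396.15 and none at day 7. Its transcript stood at 9.97, 13.7 and 20.8 CPM at day 7, against 7070, 3980 and 4180 CPM at day 0 (log2 fold change -8.42, SE 0.345, edgeR adjusted p = 3.21e-10). Acta2, smooth muscle actin, was likewise bound at day 0 only, with a score of 1267.69, and Thy1, a surface marker of fibroblasts, with a score of 256.69. Thy1 was picked after its values had been seen.

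Pdgfra, the receptor that marks fat cell precursors, was the 1 gene of the list bound at day 7 only. Its score was 1141.72 at day 7, with no promoter peak at day 0. Its RNA was at 59.8, 66.5 and 63.0 CPM at day 7, against 996, 954 and 903 CPM at day 0 (log2 fold change -3.91, SE 0.104, edgeR adjusted p = 2.17e-11).

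The interferon response had the largest count of promoters bound at day 0 only. Of 22 genes, 7 were bound at day 0 only, 9 at both days, 1 at day 7 only and 5 at neither, and 20 of 21 tested fell with a median log2 fold change of -4.9. Among all annotated genes 1.57% were bound at day 0 only and 39.6% at both days, and 37.2% of all genes tested fell. The median score was 213.4 at day 7 and 460.6 at day 0. Ifit3 had a day 0 peak of 1260 and none at day 7, with 0.33, 0.464 and 0.827 CPM at day 7, against 197, 50.9 and 57.2 CPM at day 0. Isg15, a small protein conjugated to others after infection, had a day 0 peak of 1206.51 and none at day 7, with 0.991, 0.67 and 1.24 CPM at day 7, against 96.5, 19.3 and 21.2 CPM at day 0. Ifit1 had a day 0 peak of 535.52 and none at day 7. The days did not overlap in any of these 3 genes, and replicate 1 of day 0 was the highest in each. Without it, 20 genes of the list passed as lower.

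Ifit3b, a near copy of Ifit3, had a day 7 peak of 66.86 and none at day 0. It is uncertain, since reads of the pair may be split between them. Its transcript stood at 0.11, 0.309 and 0 CPM at day 7, against 78.7, 19.4 and 19.1 CPM at day 0.

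Of 23 genes of inflammation, 13 were bound at both days, 2 at day 7 only, 1 at day 0 only and 7 at neither, and of 20 tested 3 rose and 17 fell. Among all annotated genes 39.6% were bound at both days, and of all genes tested 32.6% rose and 37.2% fell. Cxcl5, a chemokine of neutrophils, had a score of 181.09 at day 7 and 2854.56 at day 0. It had 2.2, 1.8 and 2.17 CPM at day 7, against 363, 393 and 431 CPM at day 0 (log2 fold change -7.58, SE 0.217, edgeR adjusted p = 2.61e-11). Ccl7, a chemokine of monocytes, had a score of 253.35 at day 7 and 3100 at day 0. It had 1.98, 1.8 and 2.07 CPM at day 7, against 351, 162 and 179 CPM at day 0 (log2 fold change -6.88, SE 0.32, edgeR adjusted p = 9.71e-10). Scores of different lists cannot be set against each other as amounts, and are given here as each list's own.

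Another gene bound at day 0 only fell as far. S1pr1, a receptor of sphingosine phosphate, had a day 0 peak of 71.58. Its RNA was at 0.11, 0.103 and 0.103 CPM at day 7, against 44.7, 34.3 and 34.4 CPM at day 0 (log2 fold change -8.41, SE 0.235, edgeR adjusted p = 2.61e-11). The few genes of this class that rose did so by less. St3gal4, a sialyltransferase, had a day 0 peak of 723.99. It had 87.3, 88.4 and 98.6 CPM at day 7, against 28.9, 21.9 and 27.2 CPM at day 0 (log2 fold change 1.81, SE 0.136, edgeR adjusted p = 7.63e-08). Ndrg1, a gene of stress and differentiation, had 103, 108 and 138 CPM at day 7, against 2.74, 30.6 and 27.2 CPM at day 0, where replicate 1 was far below the others.

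LSD1 and the members of its complexes were bound in 19 of 21 cases at day 7, 16 of these at both days. For all annotated genes these shares were 46.9% at day 7 and 39.6% at both days. Kdm1a had a day 7 promoter peak of 374.85 and none at day 0, while its RNA fell, by 0.84 on the log2 scale (SE 0.0969, edgeR adjusted p = 5.21e-06). Nrf1, the regulator of mitochondrial genes, had a score of 1708.83 at day 7 and 641.55 at day 0. It had 32.1, 34.0 and 35.5 CPM at day 7, against 32.0, 46.8 and 47.4 CPM at day 0, which overlapped and did not pass the test (log2 fold change -0.31, SE 0.14, edgeR adjusted p = 0.0627). It did pass without replicate 1 of day 0, at -0.47.

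Developmental genes mostly had no promoter peak, where 51.5% of all annotated genes were bound at neither day. Of 39 Hox genes, which set position along the body axis, 28 were bound at neither day, 8 at both and 3 at day 7 only. Of 39 Wnt ligands and receptors, 27 were bound at neither day, 7 at both and 5 at day 7 only. None of the 8 muscle markers and none of the 8 endothelial markers was bound at the promoter. Of 8 macrophage markers 1 was bound at day 7 only and 2 at both days, and of 8 bone or cartilage markers 2 were bound at both days.

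LSD1 peaks also spread over whole gene bodies, and the genes so covered differed between the days. Coverage depends on peak width, with a median of 707 bp at day 7 and 1695 bp at day 0. The part of width in these counts was not tested. Of 18429 genes of at least 5 kb, 131 (0.711%) had 50% or more of their body under day 7 peaks and 271 (1.47%) under day 0 peaks. This measure and its 50% limit, and the genes named for it, were chosen after the values had been seen. At day 7 only, 82 genes were covered, of which 62 of 76 tested rose (81.6%) and 6 fell, with a median log2 fold change of 2.16. At day 0 only, 222 were covered, of which 51 of 208 tested rose and 102 fell (49.0%), with a median of -0.37. Both days covered 49 genes, of which 21 rose and 11 fell. Over all 11188 tested genes of that length, 32.7% rose and 37.5% fell.

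Without the 101 peaks described above, 71 genes were covered at day 7 only, and 57 of 66 tested rose while 3 fell. Without replicate 1 of day 0, the count for day 7 only was again 62 risen, and for day 0 only 62 risen and 105 fallen.

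The genes covered at day 7 only included much of fat storage. Of 24 genes of the adipocyte program of that length, 10 were covered at day 7 only, 1 (Plin4) at both days and none at day 0 only. Acsl1, over 65.0 kb, was covered to 100% at day 7 and to 1.12% at day 0. Its transcript stood at 2980, 2960 and 3040 CPM at day 7, against 39.8, 56.6 and 55.8 CPM at day 0 (log2 fold change 5.88, SE 0.176, edgeR adjusted p = 3.01e-11). Agpat2 was covered to 100% at day 7 and 9.69% at day 0, Cidec to 97.9% and 0%, and Plin1 to 93.0% and 0%. Scd1 was covered to 90.1% at day 7 and 2.16% at day 0, Lipe to 98.1% and 20.1%, and Lpl, the lipase that takes up blood lipids, to 97.7% and 34.9%.

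The genes covered at day 0 only included matrix and secreted proteins of fibroblasts. Of 24 preadipocyte and fibroblast genes of that length, 9 were covered at day 0 only and none at day 7. Col1a1, the main collagen, was covered to 7.97% at day 7 and 100% at day 0. It had 146, 165 and 179 CPM at day 7, against 6350, 5300 and 4670 CPM at day 0 (log2 fold change -5.06, SE 0.151, edgeR adjusted p = 3.01e-11). Dlk1 was covered to 0% at day 7 and 98.5% at day 0, and Cxcl12, a chemokine of stromal cells, to 2.54% and 100%. Csf1 was covered to 6.03% at day 7 and 100% at day 0, with 33.4, 39.6 and 36.3 CPM at day 7, against 663, 754 and 702 CPM at day 0. Ifit1, Ifit3 and Stat2, a signal carrier of interferon, were covered at day 0 only, as were 5 of 34 splicing factors.

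Genes with large rises were more often covered further at day 7, and genes with large falls did not stand out in this count. Of 162 genes with a log2 fold change of 5 or more that passed the test, 96 were more covered at day 7, 2 at day 0 and 64 equally. Of 645 with one of 2 to 5 these counts were 397, 155 and 93. Between -2 and 2 lay 8742 genes, with counts of 2901, 5315 and 526. Of 1260 genes with one of -2 to -5 the counts were 267, 608 and 385, and of 351 with one of -5 or less they were 55, 103 and 193. The mean share covered at day 7, in the same order of groups, was 11.8%, 10.7%, 5.36%, 2.58% and 0.946%. At day 0 the means were 0.877%, 5.23%, 7.3%, 6.86% and 4.41%. By the mean, coverage at day 7 was thus lowest for the largest falls.

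**Figure D5:**
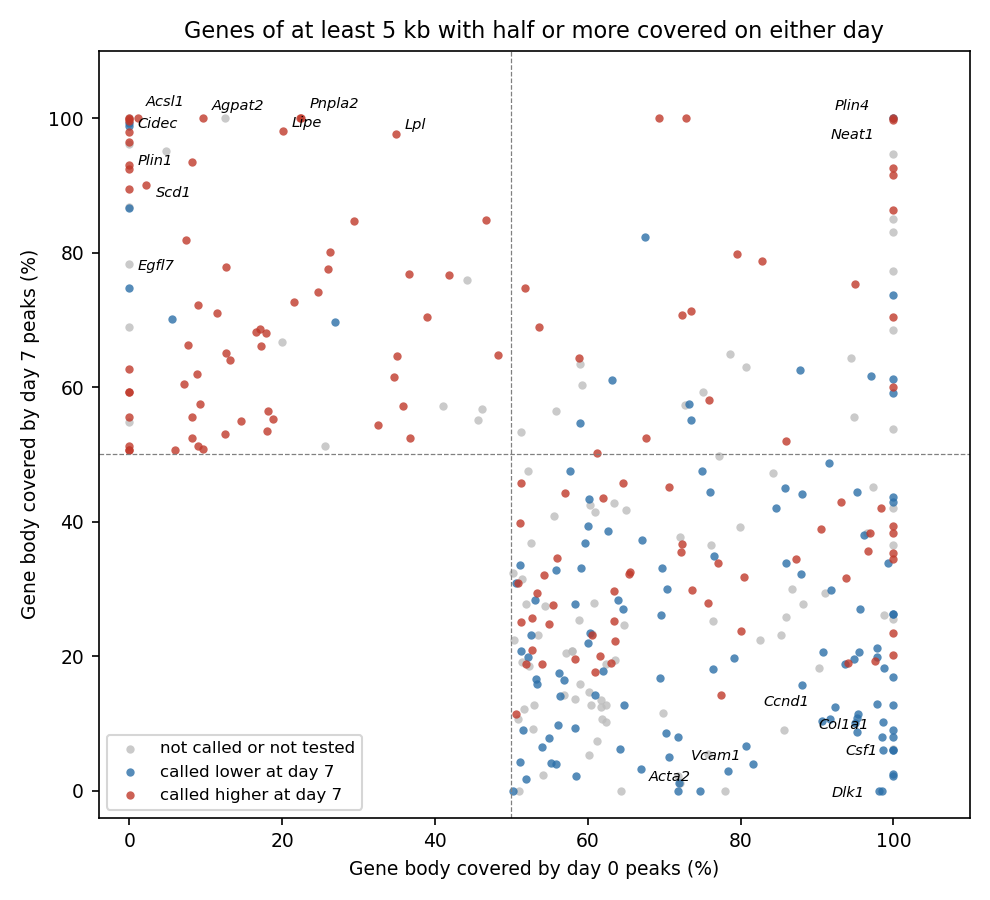
Percent of the gene body under LSD1 peaks at day 7 and at day 0 for genes of at least 5 kb with 50% or more covered on either day, coloured by the edgeR call. Genes of fat storage such as Acsl1 sit at 100% at day 7 with 1.12% at day 0, and Col1a1 at 7.97% at day 7 with 100% at day 0.

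Peaks away from promoters and found at 1 day only lay near genes of the same kinds, among others. Within 10 kb of a gene or inside it, at least 1 such day 7 peak lay at 22.2% of all annotated genes and 1 such day 0 peak at 13.3%. In the adipocyte program these were 22 of 30 genes for day 7 peaks and 0 of 30 for day 0 peaks. In the interferon response they were 1 of 22 for day 7 peaks and 12 of 22 for day 0 peaks, and in the preadipocyte list 6 of 28 and 14 of 28. Other lists came close to the day 7 share of the adipocyte program, 73.3%. It was 73.1% in insulin and IGF signalling, 72.2% in glycolysis and 66.7% in the circadian clock. Their day 0 shares were 26.9%, 27.8% and 16.7%.

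Of 1002 tested genes with 3 or more such day 7 peaks, 556 rose (55.5%) and 248 fell (24.8%), with a median log2 fold change of 0.59. Of 206 with 3 or more such day 0 peaks, 33 rose (16%) and 121 fell (58.7%), with a median of -0.63. Over all 12898 annotated genes tested, 33.0% rose and 37.1% fell. Genes with more sequence around them can hold more peaks, which was not tested. Hacd2, an enzyme of long fatty acids, had 58 such day 7 peaks and no such day 0 peak. It had 542, 534 and 529 CPM at day 7, against 47.1, 41.0 and 39.8 CPM at day 0 (log2 fold change 3.65, SE 0.106, edgeR adjusted p = 2.66e-11). Cd36 had 32, again with no such day 0 peak. Cdh11, a cadherin of mesenchymal cells, had 2 such day 7 peaks and 26 such day 0 peaks. It had 6.06, 6.96 and 5.58 CPM at day 7, against 444, 696 and 660 CPM at day 0 (log2 fold change -6.6, SE 0.193, edgeR adjusted p = 2.78e-11). These genes were named for their peak counts after the values had been seen.

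Short sequence motifs differed in part between these sets of sites, and not all motifs searched are given here. They were searched on both strands in the central 300 bases of each peak and in 882455 windows of 300 bases over the genome. The C/EBP letters lay in 17.9% of the 12187 day 7 peaks away from promoters without a day 0 partner, in 13.9% of the 3099 such day 0 peaks and in 13.9% of genome windows. The PPAR and RXR letters lay in 11.8% at day 7, 8.16% at day 0 and 5.86% of genome windows. The AP-1 letters lay in 16.1% at day 7, 13.2% at day 0 and 8.85% of genome windows. Peaks away from promoters with a partner held the C/EBP letters in 12.4% of cases in the day 7 list and 11.9% in the day 0 list. They held the PPAR and RXR letters in 10.4% and 10.6%, and the AP-1 letters in 13.5% and 15.4%. The sets without a partner also differed in base composition, with 50.1% G and C at day 7, 46.4% at day 0 and 41.7% in the genome. With a partner it was 52.8% in the day 7 list and 51.9% in the day 0 list. The part of composition in these shares was not tested.

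The letters were also counted in promoters by class of binding. CCGGAAG of the ETS family lay in 20.5% of promoters bound at both days, 10.9% of those of day 7 only, 5.07% of those of day 0 only, 3.24% of those bound at neither day and 11.3% of all 23307 promoters. GCATGCGC of NRF1 lay in 5.91%, 4.12%, 3.1%, 1.15% and 3.45% in the same order. GAAANNGAA of the interferon factors lay in 5.61% of promoters of day 7 only, 6.77% of both days, 10.7% of day 0 only, 9.29% of neither day and 7.95% of all promoters. The content of G and C was 60.7% in promoters of day 7 only, 61.3% of both days, 54.3% of day 0 only and 50.9% of neither day, and its part in these shares was not tested either. TTGCNNAA, seen in the Cidec and Plin1 promoters, lay in 9.5% of promoters of day 7 only, below the 10.2% of all promoters. Among 19 promoters of interferon genes, 10 held GAAANNGAA.

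The day 7 sites took in nearly all LSD1 sites of control cells. Day 7 peaks of LSD1 cells overlapped 97.3% of the 8303 control peaks of day 7, while 31.0% of the day 7 peaks overlapped one of them. Day 0 peaks of LSD1 cells overlapped 90.6% of the 3024 control peaks of day 0, while 19.3% of the day 0 peaks overlapped one. Of the 1629 Nrf1 peaks of day 7, the day 7 LSD1 peaks of LSD1 cells overlapped 98.2% and the day 0 LSD1 peaks 87.5%. A promoter peak of Nrf1 at day 7 was found for 17.2% of the genes bound by LSD1 at both days, 8.66% of those of day 7 only, 1.31% of those of day 0 only and 0.0559% of those bound at neither. Over all genes it was 7.5%. With the Nrf1 list of day 0 these shares were 15.8%, 8.6%, 1.31% and 0.128%, and 6.95% over all genes.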

How the data were processed

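Expression was measured by RNA-seq in 12 libraries, and LSD1 binding by ChIP-seq in 1 sample for each list, so peaks allow no test between days. The authors deposited raw read counts per RefSeq transcript without a header. The authors deposited each peak with a score, in no stated unit, and the lists were called per sample. MACS 1.41, Bowtie2, TopHat2 2, HOMER, edgeR and DESeq 1.8.3 are named per the submitters' processing notes, without roles or order, with mm10 as the build. Read depth, input use and cut-off of the peaks, and the strand setting of the counts, are not given in the sources used here. Genes that overlap a neighbour are uncertain for that reason.

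Each count file had 30521 transcripts, of which 29144 matched a gene symbol in RefSeq, and those without one held 1.15% of counts. The transcript with the highest mean count stood for each gene. Levels are CPM with TMM-scaled library sizes. The test of expression was that of edgeR 4.0.16 under R 4.3.3 (TMM, filterByExpr, robust quasi-likelihood fit of 4 groups, two-sided, Benjamini-Hochberg adjustment over 13395 genes, threshold 0.05) and was tested on simulated data. DESeq2 1.42.0, no filter, the 6 libraries of LSD1 cells alone, a replicate term and each library left out were alternatives. The titles give 3 replicates per group, and p-values measure the spread between these samples only. Counting intervals cover counting error only.

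Peaks were compared by overlap of at least 1 bp with peaks of the other list, and put on genes, transcripts and bases of RefSeq GRCm38.p6, which has the coordinates of mm10. Alternatives were scores of at least 100, a day 7 list cut to the length of the day 0 list, overlap of 50% of the shorter peak, the peak centre, and promoter windows of 500 bp and 2 kb.

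The sites and all gene lists were chosen with earlier results of these data known. Peaks were named by rule as the 10 highest scores at promoters, the 5 highest elsewhere and the 3 widest of each list, with ties in score ordered by width. Genes were named as the 5 largest rises and falls in each class of binding, among those past the threshold with no overlap between the days and a mean of at least 10 CPM, up to 2 genes per list and class by score, and a few regulators always. Not every gene of the rule is printed. Genes given for gene-body coverage, for counts of peaks elsewhere or as printed sequences, and Gpd1, Plin1 and Thy1, were added after their values had been seen. A few genes are not reported here.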

Additional observations from a re-analysis of the deposited data

Results flagged for a closer look

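For 44 of the 48 genes checked, the change between day 7 and day 0 differed between LSD1 cells and control cells in edgeR's interaction test (largest adjusted p 0.014). The difference, on the log2 scale, is the change in LSD1 cells minus the change in control cells, and it was above 0 for 21 genes and below 0 for 23. These RNA differences stand beside the binding of LSD1 cells only, and 52.0% of all genes tested passed the same test. Most of the 48 genes were named for the size of their change in LSD1 cells, which favours a difference from control cells, so the count is no result about them.

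Among genes of fat cells, the difference was 1.61 for Pparg, 2.79 for Cebpa, 3.05 for Adipoq, 3.98 for Cd36, 4.42 for Cidec, 2.8 for Plin1 and 2.36 for Fabp4. It was 2.72 for Gpd1, 2.81 for Lipe, 1.97 for Pnpla2, 2.78 for Agpat2, 2.42 for Scd1 and 1.89 for Hacd2. For other genes with the largest rises it was 4.31 for Mrap, 4.02 for Cox7a1, 7.2 for Chchd10 and 2.52 for 4732471J01Rik. Chchd10, a mitochondrial protein, rose in LSD1 cells by a log2 fold change of 6.96 and had -0.24 in control cells. Among the rises of genes bound at day 0 only it was 2.57 for Ndrg1, 1.4 for St3gal4, 1.64 for Zfp385c and 0.9 for Prkd2.

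Among cell cycle genes the difference was -5.42 for Kif23, -7.1 for Iqgap3, -6.14 for Nuf2, -5.88 for Troap, -5.88 for Kif2c and -2.68 for Mcm5. Among interferon genes and chemokines it was -9.25 for Ifit1, -8.23 for Ifit3, -9.09 for Ifit3b, -6.76 for Isg15, -9.98 for Cxcl5 and -6.4 for Ccl7. Cxcl5 fell in LSD1 cells by 7.58 on the log2 scale and had a log2 fold change of 2.39 in control cells. Among genes of fibroblasts and signalling it was -5.25 for Dlk1, -4.64 for Pdgfra, -3.12 for Col1a1, -3.63 for Csf1, -5.06 for Cdh11, -4.13 for Fgf7 and -5.97 for Fbln1. It was -7.28 for S1pr1, -8.36 for Plekhg4 and -6.39 for Rapgef3. For Kdm1a it was -0.57. The value of Iqgap3 rests on 3 counts or fewer over a group and depends on the prior count of the fit. Without replicate 1 of LSD1 cells at day 0, the log2 fold change in LSD1 cells, with its value on all libraries after it, was -4.38 against -5.55 for Isg15, -6.62 against -7.53 for Ifit3, -7.05 against -8.06 for Ifit3b and -7.03 against -7.79 for Ifit1. It was -6.41 against -7.07 for Kif23, -5.11 against -6.09 for Nuf2, -7.22 against -8.87 for Iqgap3, -6.36 against -7.19 for Troap, -5.86 against -6.66 for Kif2c and -3.53 against -4.38 for Mcm5. For Cidec it was 13.85 against 13.11. Without replicate 3 of day 7 Iqgap3 had -11.81, and without replicate 2 of day 7 Ifit3b had -9.38. The differences above were not refitted without these libraries.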

How the results depend on the processing

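Peak shares depended on the choice of peaks. The overlapped share of the day 7 list, 47.2%, was 51.1% for scores of at least 100, 70.1% for a day 7 list as long as the day 0 list and 45.6% for an overlap of 50% of the shorter peak. That of the day 0 list, 75.2%, was 80.6% and 65.3% under the first pair of choices. The promoter share for scores of at least 100, the peak centre, 500 bp and 2 kb was 58.8%, 39.1%, 38.3% and 46.0% at day 7, and 73.0%, 56.6%, 61.1% and 64.2% at day 0. Scores of at least 100 gave 3002 genes bound at day 7 only, of which 1071 rose and 913 fell, and a day 7 list of equal length gave 809 genes bound at day 0 only. In that setting, added for the RNA counts after seeing the data, 358 genes of day 7 only fell, and 70 of day 0 only rose and 473 fell. The shorter lists hold fewer weak peaks by construction. With 25% of the gene body as the limit, chosen after seeing the data, 127 genes covered at day 7 only rose and 11 fell, and 101 covered at day 0 only rose and 235 fell. With 75%, 26 of day 7 only rose, and 24 of day 0 only rose and 56 fell.

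The same-numbered libraries of the days did not deviate together (correlations -0.0782, 0.114 and -0.154), so the numbers do not pair them. With the replicate block, 4264 genes rose and 4814 fell, against 4363 and 4984 without it. Of 239 alternative values of 26 results, 212 stayed within 1.5 times the count or within the interval of the share. Of 480 alternative values for 48 named genes, 478 kept direction and call. Iqgap3 lost its call with DESeq2 (-9.06), and Nrf1 gained one without day 0 replicate 1 (-0.47); the cause was not tested. With 1 ChIP sample a day, no peak difference has a replicate check.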

Other observations

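Other gene lists with broad cell functions were mostly bound at both days, where 39.6% of all annotated genes were. All 37 genes of aminoacyl tRNA synthetases, which load amino acids onto transfer RNAs, had a day 7 promoter peak, 35 of them also at day 0, and 19 rose while 3 fell. Of 36 splicing factors 35 were bound at both days, and 4 rose while 16 fell. Of 20 genes of the stress response 18 were bound at both days, and 16 rose while 1 fell. Over all genes tested 32.6% rose and 37.2% fell. Of 63 histone genes that are made during replication 60 were bound at both days.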
